A study of Mus musculus with 6 samples.

Results

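The Zbtb, Zscan and Zkscan genes encode zinc finger transcription factors, and 69 of the 24421 rows of the hippocampal count table carry such a symbol (42 Zbtb, 16 Zscan and 11 Zkscan). Membership was set by the symbol alone, so it also takes in Zbtb8os, which is a protein-coding gene on the opposite strand beside Zbtb8a, and Zbtb11os1, a long non-coding RNA inside Zbtb11. Hippocampal RNA came from 3 wild type mice and 3 mice with a conditional knockout (cKO) of Ctcf, all of strain C57/Bl. The labels give no other allele, age, sex or treatment for either genotype, and the Cre driver and the cells in which Ctcf was deleted are not given in the sources used here. Libraries held 14974750 to 23220455 counted reads. Of the 69 members, 62 passed the filter on low counts (a minimum count of 10 in enough libraries) and entered the test, namely all 42 Zbtb, all 11 Zkscan and 9 of 16 Zscan genes.

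CTCF is itself a protein with a row of C2H2 zinc fingers that binds DNA at chromatin loops and insulators. Zbtb proteins join C2H2 zinc fingers, which read DNA, to an N-terminal BTB domain, which pairs protein chains and can bind corepressors and the ubiquitin ligase scaffold Cul3. Zscan proteins carry a SCAN domain, a leucine-rich segment for pairing with other SCAN proteins, and many Zkscan proteins add a KRAB domain, which recruits the corepressor Trim28. Several members are known from the forebrain, among them Zbtb18, a repressor needed for cortical neuron development, and Zbtb20, which is needed for the identity of CA1 neurons.

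The start regions of the tested members at the ends of the fold change order are shown because the deleted factor binds DNA and these are the sequences beside which it could be sought. They are the RefSeq windows of build GRCm38.p6, with 250 bases before and 50 after the annotated start. Zbtb39 and Zbtb8a had the lowest log2 fold changes of the 62 tested members, Zbtb18 and Zbtb26 the highest, and for Zbtb18 the most upstream of its listed starts is given. Capitals mark matches on either strand to GGGGGCGCT, the last letters of the usual CTCF binding pattern, or to ACATCTG, the E-box read by Zbtb18.
Zbtb39 promoter, chr10:127739280-127739579, plus strand: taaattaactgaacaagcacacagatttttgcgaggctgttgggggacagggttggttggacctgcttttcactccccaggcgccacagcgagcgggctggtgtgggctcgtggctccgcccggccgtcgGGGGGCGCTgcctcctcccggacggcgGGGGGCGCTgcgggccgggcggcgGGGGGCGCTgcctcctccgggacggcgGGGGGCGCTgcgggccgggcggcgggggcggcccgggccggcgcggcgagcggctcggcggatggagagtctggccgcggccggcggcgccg
Zbtb8a promoter, chr4:129377979-129378278, minus strand: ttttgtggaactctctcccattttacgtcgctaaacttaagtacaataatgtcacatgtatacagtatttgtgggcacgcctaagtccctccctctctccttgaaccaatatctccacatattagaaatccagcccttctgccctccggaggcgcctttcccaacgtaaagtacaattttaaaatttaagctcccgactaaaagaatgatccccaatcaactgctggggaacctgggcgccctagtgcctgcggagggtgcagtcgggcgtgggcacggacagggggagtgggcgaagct
Zbtb18 promoter, chr1:177442101-177442400, plus strand: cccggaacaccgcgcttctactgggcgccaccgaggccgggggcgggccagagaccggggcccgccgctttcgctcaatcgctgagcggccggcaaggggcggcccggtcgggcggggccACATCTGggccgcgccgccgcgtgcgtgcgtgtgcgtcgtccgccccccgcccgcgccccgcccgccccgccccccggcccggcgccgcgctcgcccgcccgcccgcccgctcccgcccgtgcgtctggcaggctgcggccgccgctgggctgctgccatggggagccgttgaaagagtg
Zbtb26 promoter, chr2:37443123-37443422, minus strand: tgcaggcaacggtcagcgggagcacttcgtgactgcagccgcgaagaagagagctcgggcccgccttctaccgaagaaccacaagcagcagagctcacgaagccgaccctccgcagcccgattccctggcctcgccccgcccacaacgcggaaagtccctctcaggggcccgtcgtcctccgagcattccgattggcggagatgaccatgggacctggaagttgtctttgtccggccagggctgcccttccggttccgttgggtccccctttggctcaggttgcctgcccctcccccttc
The Zbtb39 window held 4 copies of GGGGGCGCT in a G-rich stretch ahead of the start, and its GC content was 77.0%. The stretch is a repeat, in which 2 copies with the letters after them recur nearly unchanged as the next 2. They are thus not 4 independent matches. Those letters were searched for after the window had been seen. They occurred in 1 of 57 members with a window (1.75%) against 0.836% of 27025 genes, and Zbtb39 was the 1 gene of all with as many as 4 copies. Because the letters were picked from this repeat, that count is no support for a binding site. The core of the CTCF binding pattern, whose end overlaps the start of GGGGGCGCT in the full pattern, matched none of the windows shown and 3 of 57 members (5.26%, against 2.82% of all genes). ACATCTG occurred in 2 of 57 members, Zbtb18 and Zbtb46 (3.51%, against 5.1% of all genes). The palindrome known as a Kaiso (Zbtb33) motif occurred in 1, Zkscan2 (1.75%, against 0.525%). Each match is a description of letters and not a measured binding site.

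Ctcf, read first as a check of the labels, had 64.3, 65.2 and 70.3 CPM (the count scaled to the adjusted library total) in wild type against 24.1, 34.5 and 35.8 CPM in cKO, where values of 3 libraries stand in the order of replicates 1 to 3 here and below (log2 fold change of cKO over wild type -1.08, SE 0.15, edgeR adjusted p = 0.0264). The groups did not overlap, but the Ctcf call was lost on omitting wild type replicate 1 (adjusted p = 0.0604), wild type replicate 3 (0.101) or cKO replicate 2 (0.124). The fold change stayed about as large in those fits, at -1.10, -1.04 and -1.15 on the log2 scale. Both genotypes expressed the 10 hippocampal neuron markers, at a summed 557.0 to 763.6 CPM in wild type against 642.4 to 832.5 CPM in cKO, and none was at 0, while 1 of them was called lower in cKO. Markers of neighbouring tissue differed between libraries. The 8 striatal markers summed to 622.2, 3016 and 1240 CPM in wild type and to 133.9, 365.0 and 214.9 CPM in cKO, with 8 of 8 log2 fold changes negative, none past the adjusted threshold and none at 0. The 8 choroid plexus markers summed to 6268 to 12304 CPM in wild type against 610.3 to 6923 CPM in cKO, and the 8 oligodendrocyte markers to 13809 to 18317 and 10556 to 13937 CPM. In each of these lists too, 0 of 8 log2 fold changes were positive. Sums of astrocyte, microglia and endothelial markers overlapped between the genotypes. Those of inhibitory neurons ran from 812.1 to 1055 CPM in wild type and from 697.7 to 804.4 CPM in cKO, with 1 of 8 log2 fold changes positive. Only the striatal list was used as a covariate below. P-values set the difference between genotypes against the spread between samples of the same genotype. The series calls these 6 samples biological replicates. The part of the marker differences in the values below was not tested beyond the fits named with them, and in whole tissue fewer cells of a type and less RNA per cell cannot be told apart.

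Most zinc finger genes of these families were close to their wild type levels in cKO. No member passed the test (edgeR's quasi-likelihood test, adjusted p below 0.05 over 14916 genes), against 1.51% of all genes (1.05% called higher in cKO and 0.463% called lower). The member nearest to the threshold, Zbtb39, lay just outside it with an adjusted p of 0.0501, and the next were Zbtb8a (0.134) and Zbtb11 (0.145). At an unadjusted p below 0.05 there were 15 of 62 members (24.2%), against 19.9% of all genes tested. Of these, 10 had positive log2 fold changes (16.1% of members, against 11.1% of all genes) and 5 had negative ones (8.06%, against 8.81%). That excess depended on the setting. It was kept with DESeq2 size factors (22.6% against 19.8% of all genes), upper-quartile scaling (21% against 19.9%) and limma-voom (21% against 19.9%). It was also kept without the filter (22.2% against 16.3%) and with a filter of at least 1 mean CPM (24.6% against 20.4%). With the replicate number as a block there were 13 members (21% against 24% of all genes), and with DESeq2 11 members (17.7% against 18.2%). Omitting 1 library left 9 members (14.5% against 16.8%) for wild type replicate 2, 8 (12.9% against 17.3%) for wild type replicate 3, 7 (11.3% against 14%) for cKO replicate 1 and 7 (11.3% against 15.3%) for cKO replicate 2. The count was 12 (19.4% against 18.8%) for wild type replicate 1 and 11 (17.7% against 17%) for cKO replicate 3. There were 5 members (8.06% against 14%) with wild type replicate 2 and cKO replicate 1 both omitted, and 2 (3.23% against 10.9%) when the striatal marker level entered as a covariate. That level separated the genotypes (centred mean log2 CPM 0.24 to 2.49 in wild type against -2.11 to -0.67 in cKO). A fit with it therefore cannot tell the marker level from genotype, here and below. DESeq2, run on the same counts, called 1 member, Zbtb39, which is 1.61% of members against 5.91% of all genes (3.48% higher and 2.43% lower).

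The members' log2 fold changes lay in a narrow band with its centre above 0. They ran from -0.70 to 0.51, with a median of 0.099, while the median of all genes tested was -0.0042. Positive values were found for 40 of 62 members (64.5%), against 49.2% of all genes, and 46 members (74.2%) lay within 0.25 of 0, against 66.9%. Values of 0.5 or more in either direction were found for 4 members (6.45%), Zbtb39, Zbtb8a, Zbtb7c and Zbtb18, against 12.5% of all genes. The median SE of a member's log2 fold change was 0.13, so a shift as small as the median could not be resolved for a typical single gene. These are counts over genes chosen by name and carry no test.

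**Figure D1:**
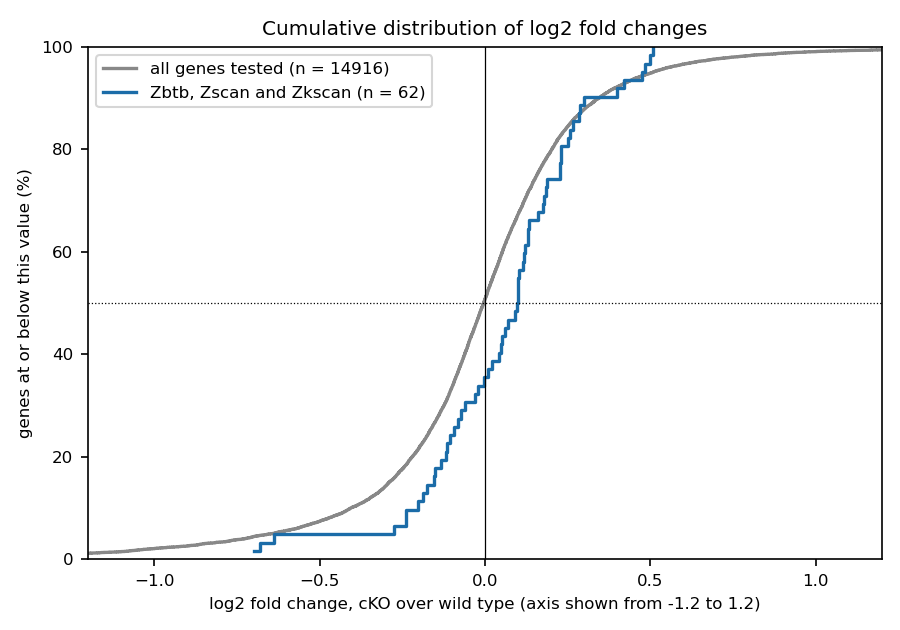
Cumulative share of genes (y axis, %) at or below each log2 fold change of cKO over wild type (x axis) for the 62 tested members (blue) and all 14916 genes tested (grey). The blue curve crosses 50% at 0.099 and the grey one at -0.0042, and the blue curve stays within -0.70 to 0.51.

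The groups did not overlap for 21 of 62 members (33.9%), against 27% of all genes tested. In 12 of these the cKO libraries were above all wild type libraries (19.4%, against 14.6%), and in 9 they were below (14.5%, against 12.4%). The most negative log2 fold changes among these were those of Zbtb39 and Zbtb8a.

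Zbtb39 (chromosome 10, 127739530 to 127747349, plus strand, GRCm38) encodes a BTB zinc finger protein. It had 230, 235 and 291 counts in wild type and 149, 167 and 190 counts in cKO. Scaled to library size these were 15.2, 14.98 and 14.9 CPM in wild type against 9.25, 10.6 and 8.004 CPM in cKO. The wild type libraries lay close together and the cKO libraries were all lower, at 0.619 of the wild type mean. The log2 fold change was -0.70 (SE 0.13, adjusted p = 0.0501). In the authors' deposited table Zbtb39 had a log2 fold change of -0.71 and an adjusted p of 0.00232, and it was the 1 tested member with an adjusted p below 0.05 there (1.61%, against 5.26% of all genes tested, 3.14% higher and 2.13% lower).

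Whether Zbtb39 is called depends on the setting. Its adjusted p was 0.0496 with DESeq2 size factors, 0.0462 without the filter, 0.0497 with a filter of at least 1 mean CPM, 0.0479 with limma-voom and 0.00186 with DESeq2. It was above the threshold with upper-quartile scaling (0.0501), with the replicate number as a block (0.0612) and without any 1 library (0.0721 to 0.188). Adding the striatal marker level as a covariate gave 0.457, in a fit where 0 genes of the whole table passed and 1620 had an unadjusted p below 0.05. The log2 fold change was between -0.80 and -0.60 in all of these fits. No neighbouring gene tested on either side passed. Tac2, which encodes neurokinin B, had 22.3, 10.96 and 3.48 CPM in wild type against 4.90, 8.35 and 12.2 CPM in cKO (a log2 fold change of -0.50, adjusted p = 0.683). Gpr182, a G protein-coupled receptor gene on the other side, had a log2 fold change of -0.30 (adjusted p = 0.532), and Myo1a, beyond Tac2, one of 0.74 (adjusted p = 0.195).

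**Figure D2:**
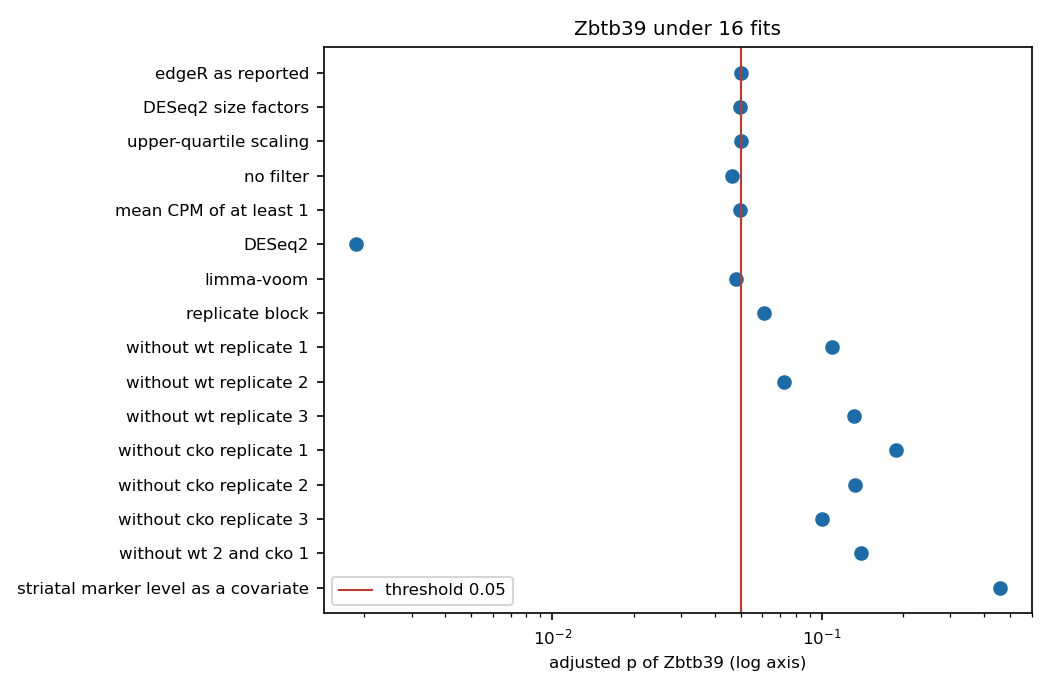
Adjusted p of Zbtb39 (x axis, log scale) in the edgeR fit as reported and under 15 other settings (y axis), with the threshold of 0.05 as a red line. Most settings with all 6 libraries sit at the line, DESeq2 sits at 0.00186, and every fit that leaves out a library sits to the right of the line.

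Zbtb8a (chromosome 4, 129353632 to 129378028, minus strand) is a further BTB zinc finger gene. Its level was 7.01, 10.2 and 7.73 CPM in wild type against 6.02, 4.52 and 5.01 CPM in cKO. Wild type replicate 2 was the highest library and the groups did not overlap. Its log2 fold change of -0.68 had an SE of 0.19 (adjusted p = 0.134). The striatal covariate brought it to -0.40 (adjusted p = 0.68). Its neighbours Zbtb8os and Zbtb8b, both within 100 kb, had log2 fold changes of 0.18 and 0.18, so these 3 genes did not share a sign. Zbtb7c had a log2 fold change of -0.64 with an SE of 0.27, and its groups overlapped.

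Zbtb18, also called RP58, was the most abundant member and had the highest log2 fold change. Zbtb18 (chromosome 1, 177442351 to 177450764) had 216.2, 173.6 and 270.8 CPM in wild type against 316.1, 355.8 and 267.7 CPM in cKO. Wild type replicate 2 was the lowest library, and cKO replicate 3 lay just below wild type replicate 3, so the groups overlapped. The resulting value of 0.51 on the log2 scale had an SE of 0.17 (adjusted p = 0.176). Without wild type replicate 2 and cKO replicate 1, the libraries with the highest and lowest striatal marker sums, it was 0.35 (adjusted p = 0.371), and with the striatal covariate 0.31.

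Zbtb20 (chromosome 16, 42875689 to 43634392) had 25.1, 13.1 and 17.0 CPM in wild type against 28.6, 26.4 and 21.7 CPM in cKO. Wild type replicate 1 lay above cKO replicate 3, and its log2 fold change of 0.47 had an SE of 0.23 (adjusted p = 0.302). The sign turned with the striatal covariate, to -0.33 (adjusted p = 0.642). Leaving out wild type replicate 2 together with cKO replicate 1 gave 0.19, and omitting wild type replicate 1 or wild type replicate 2 alone gave 0.76 or 0.28. Zbtb16, the progenitor cell regulator PLZF, had 35.4, 27.7 and 29.2 CPM in wild type against 50.5, 48.6 and 30.2 CPM in cKO. There cKO replicates 1 and 2 stood above the other 4 libraries, and the log2 fold change of 0.48 (SE 0.20, adjusted p = 0.244) was 0.12 with the striatal covariate. Zbtb45, a regulator of glial differentiation in mouse, had 38.0, 36.8 and 33.5 CPM in wild type against 49.1, 40.8 and 41.9 CPM in cKO (a log2 fold change of 0.28, adjusted p = 0.18), and the striatal covariate brought it to 0.10.

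**Figure D3:**
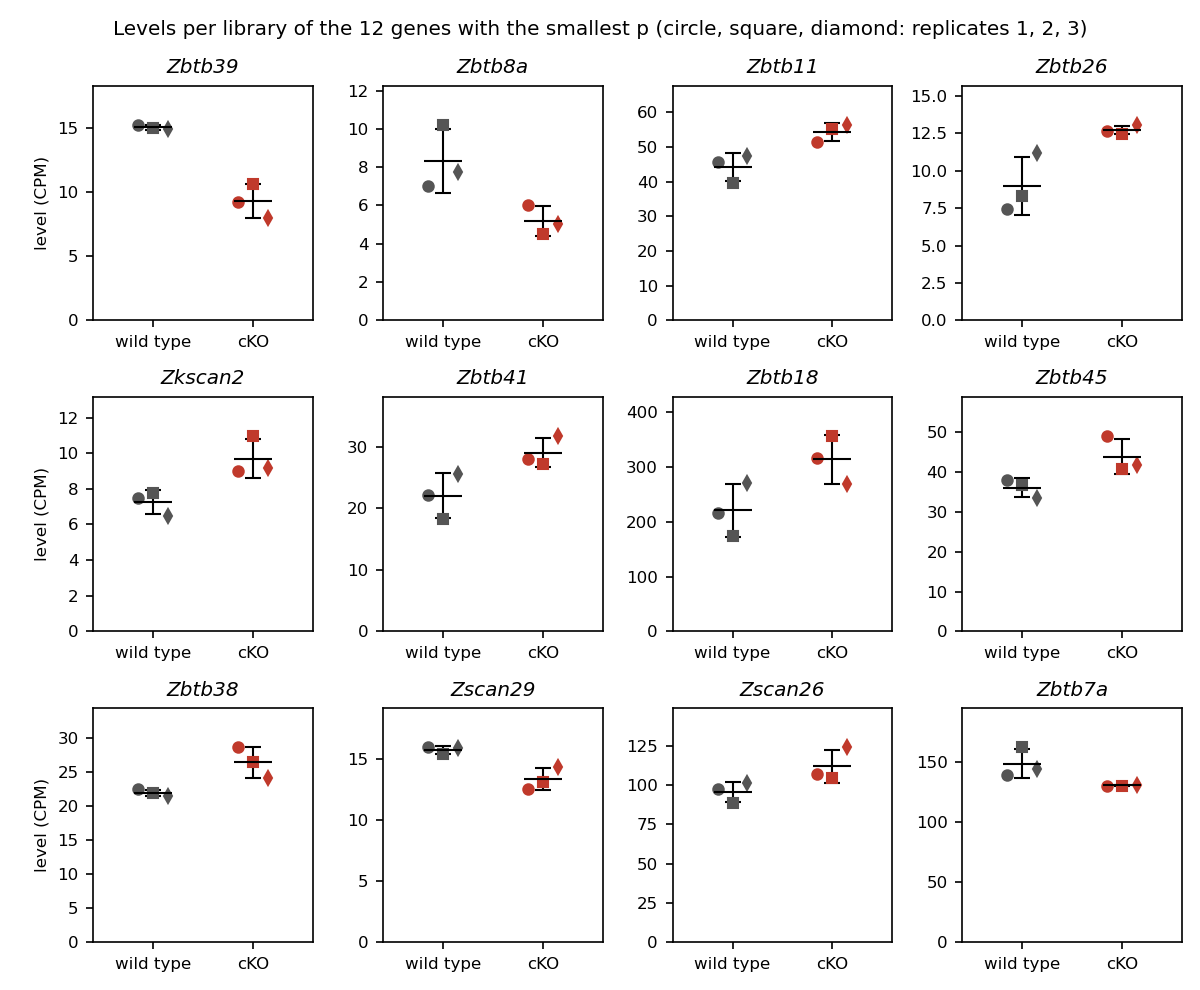
Level in CPM (y axis, from 0) in each wild type (grey) and cKO (red) library for the 12 members with the smallest p, with horizontal bars for the mean and vertical bars for the SD of 3 libraries. Zbtb39, Zbtb8a, Zscan29 and Zbtb7a are lower in all cKO libraries, Zbtb18 overlaps between genotypes, and the other 7 are higher in all cKO libraries.

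Among the other genes with small p, most had somewhat higher values in cKO. Zbtb11, a transcriptional regulator of nuclear genes for mitochondrial proteins, had 45.5, 39.5 and 47.4 CPM in wild type against 51.4, 55.2 and 56.3 CPM in cKO (a log2 fold change of 0.30, adjusted p = 0.145, or 0.19 with the striatal covariate). Its antisense partner Zbtb11os1 lies within the same gene, the counting is not stated to use strand, so reads of the pair cannot be told apart, and its log2 fold change was 0.26. Zbtb26 had 7.48, 8.29 and 11.2 CPM in wild type against 12.7, 12.5 and 13.1 CPM in cKO (a log2 fold change of 0.50, SE 0.16, adjusted p = 0.163). The cKO libraries of Zbtb26 lay close together, and all of them were above the wild type range. Zkscan2 (log2 fold change 0.42, adjusted p = 0.174) and Zbtb41 (0.40, adjusted p = 0.174) likewise had no overlap between genotypes. The striatal covariate took Zkscan2 to 0.62, Zbtb26 to 0.57 and Zbtb41 to 0.16. In the opposite direction Zscan29 had 16.01, 15.4 and 15.97 CPM in wild type against 12.6, 13.2 and 14.4 CPM in cKO (a log2 fold change of -0.24, adjusted p = 0.236). With that covariate the Zscan29 value was -0.23.

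The members that read methylated CpG sites, Zbtb33, Zbtb38 and Zbtb4, did not pass the test. Zbtb33 (Kaiso), the only member on the X chromosome, had 18.3, 17.7 and 23.1 CPM in wild type against 20.7, 26.7 and 24.9 CPM in cKO (a log2 fold change of 0.29, SE 0.14, adjusted p = 0.316), and 0.44 with the striatal covariate. Zbtb38 had 22.5, 22.0 and 21.5 CPM in wild type against 28.7, 26.6 and 24.1 CPM in cKO, without overlap (log2 fold change 0.27, SE 0.09, adjusted p = 0.184), and 0.16 with that covariate. Zbtb4, among the most abundant members at 164.8 to 189.9 CPM in wild type against 181.8 to 197.1 CPM in cKO, had a log2 fold change of 0.060 (SE 0.08, adjusted p = 0.714), with a sign that turned to -0.097 with the striatal covariate. Outside that group of readers, Zbtb24, a gene mutated in a human immunodeficiency with centromeric instability, had a log2 fold change of 0.098 (SE 0.11, adjusted p = 0.641). It turned to -0.011 with that covariate.

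Members best known from blood cell development and growth control were likewise not called. Zbtb7a (LRF) had 139.4, 162.8 and 144.8 CPM in wild type against 130.5, 130.6 and 131.3 CPM in cKO. Its cKO libraries nearly coincided below the wild type range (log2 fold change -0.19, SE 0.08, adjusted p = 0.238), and the value was -0.12 on omitting wild type replicate 2, and 0.0058 when the striatal covariate was added. Zbtb7b (ThPOK), the regulator of the CD4 T cell lineage, had a log2 fold change of -0.18 (SE 0.09, adjusted p = 0.32), which was -0.093 on omitting wild type replicate 3. Zbtb17 (Miz1), a partner of Myc, had 41.0, 50.8 and 39.5 CPM in wild type against 48.7, 37.4 and 37.0 CPM in cKO, so that 1 library of each genotype stood above the rest (log2 fold change -0.095, adjusted p = 0.75). Its sign turned to 0.025 without wild type replicate 2, and the value was -0.045 with the striatal covariate.

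**Figure D4:**
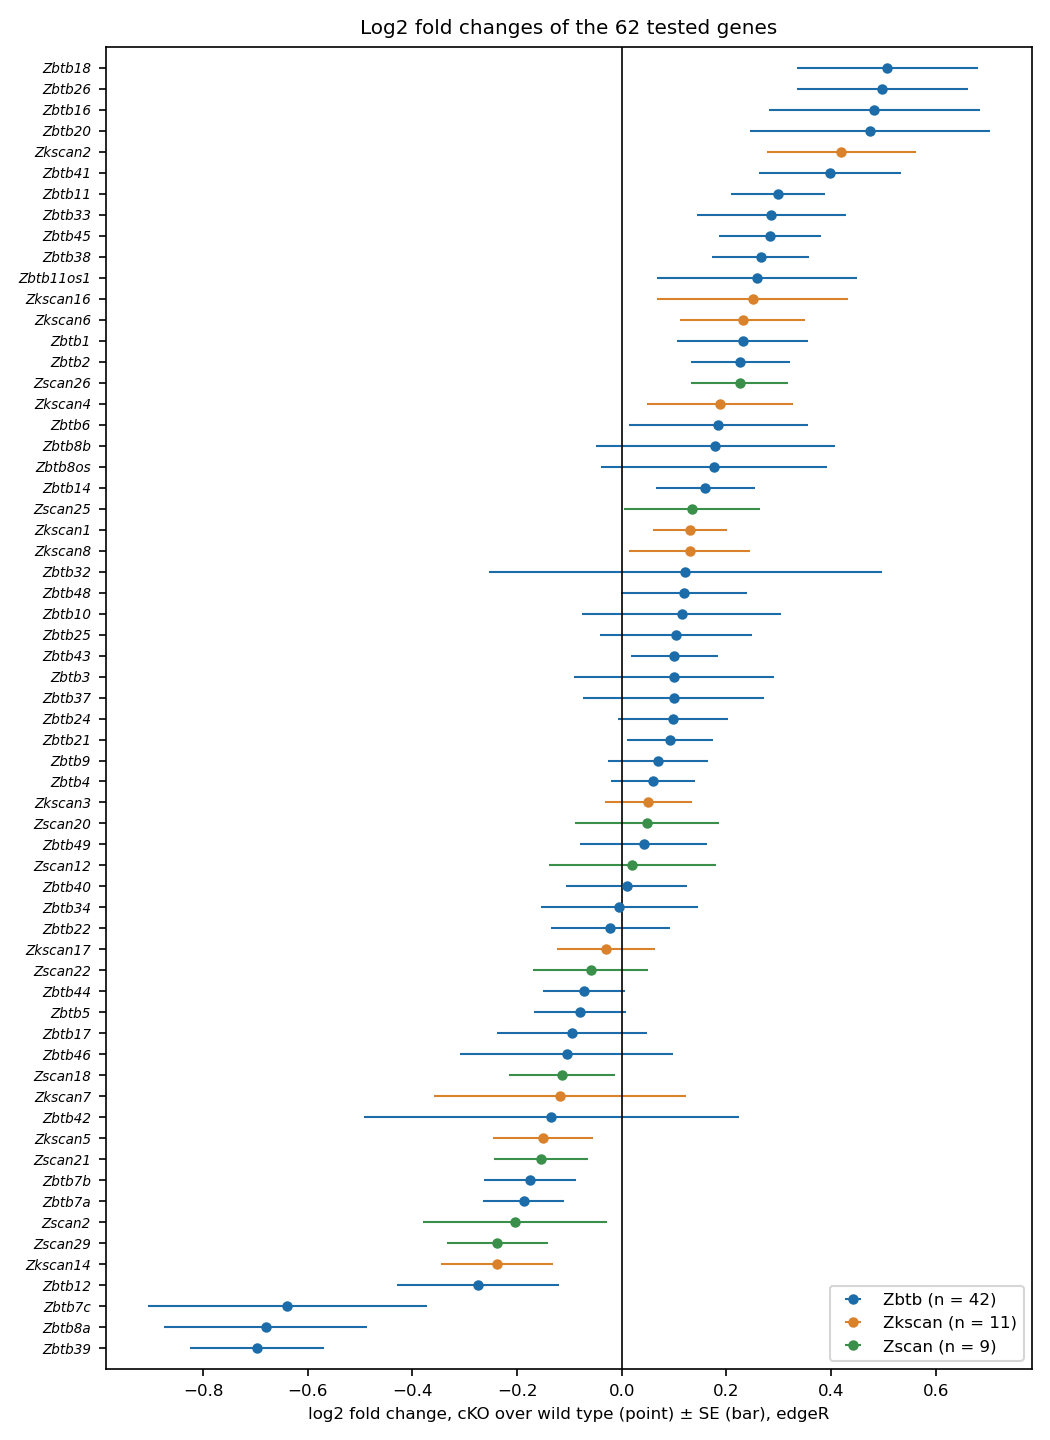
Log2 fold change of cKO over wild type (x axis, points) with its SE (bars) for each of the 62 tested members (y axis, in order of the value), coloured by symbol group. Zbtb39 and Zbtb8a lie at the lower end near -0.70 and Zbtb18 at the upper end at 0.51, while 46 members lie within 0.25 of 0.

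Split by symbol, 29 of 42 Zbtb rows, 7 of 11 Zkscan genes and 4 of 9 tested Zscan genes had positive log2 fold changes. The medians were 0.10, 0.13 and -0.059, and all 9 Zscan values lay between -0.24 and 0.23. Zkscan1, whose human counterpart is a known source of a circular RNA, had 56.1, 52.3 and 58.6 CPM in wild type against 59.9, 60.6 and 62.2 CPM in cKO (a log2 fold change of 0.13, SE 0.07, adjusted p = 0.354), or 0.053 with the striatal covariate. Zkscan3, a repressor of autophagy genes in human cells, had a log2 fold change of 0.050 (SE 0.08, adjusted p = 0.774), or 0.098 with that covariate. Zscan21, also known as Zipro1, had 19.9, 20.7 and 20.3 CPM in wild type against 19.2, 18.6 and 16.9 CPM in cKO (a log2 fold change of -0.15, adjusted p = 0.378). The Zscan21 value was also -0.15 with that covariate.

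Of the Zscan genes, 7 did not enter the test. Zscan4a, Zscan4b, Zscan4c, Zscan4d and Zscan4f, a cluster known for its burst of expression in early mouse embryos, and Zscan5b were at 0 counts in all 6 libraries. A count of 0 allows up to 0.126 to 0.199 CPM per library (3 counts, counting error only), and reads of the near-identical Zscan4 copies may not have been assigned. Zscan10, a pluripotency factor of mouse embryonic stem cells, had 9, 17 and 11 counts in wild type and 3, 6 and 4 in cKO. It was too low for the filter, and a fit without that filter gave a log2 fold change of -1.61 (adjusted p = 0.17).

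Several members lie side by side in the genome, and 20 pairs were within 100 kb of each other. In 13 of the 20 pairs both log2 fold changes had the same sign. Several of these pairs are made of the same chromosome 13 genes, and most members had positive values in any case. The count therefore cannot show whether neighbours changed together, which was not tested. The 5 members on chromosome 13 (Zscan12, Zkscan3, Zscan26, Zkscan4 and Zkscan8), which lie between 21362820 and 21531114, had 5 of 5 positive values with a median of 0.13, and 0 of them passed. Positive values were found for 64.5% of tested members and 49.2% of all genes. Zscan26 was the most abundant of these, with 97.3, 88.7 and 101.1 CPM in wild type against 107.2, 104.3 and 124.2 CPM in cKO (a log2 fold change of 0.23, SE 0.09, adjusted p = 0.238). That value was 0.14 on omitting cKO replicate 3 and 0.11 with the striatal covariate. Zkscan14 and Zkscan5 on chromosome 5, which lie 394 bases apart on opposite strands, had log2 fold changes of -0.24 and -0.15. Zkscan1 and Zscan21, 9076 bases apart on the same strand of that chromosome, had opposite signs. Zbtb26 and Zbtb6, which stand 1248 bases apart on chromosome 2, had log2 fold changes of 0.50 and 0.18. In all, 19 of the 62 tested members overlap another gene of the table, so part of their reads could belong to a neighbour.

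Levels per exon length differed far more between members than between genotypes. Zbtb18 led the order at 35.9 CPM per kb of exon in wild type and 51.0 in cKO. Zscan26 (21.9 and 25.6 CPM per kb), Zbtb4 (22.1 and 23.0) and Zbtb7a (21.9 and 19.2) followed, and the wild type ranges of these 3 overlapped. The genes Zbtb18, Zbtb4, Zbtb7a and Zscan26 held 41.1% of the members' summed CPM. At the other end Zbtb37 had 0.153 CPM per kb in wild type and 0.164 in cKO. The exon length takes in all annotated isoforms, so Zbtb20, with 30730 bases of exon, ranked low at 0.599 and 0.833 CPM per kb. Of the 62 tested members, 11 were under 5 CPM on average, 29 between 5 and 20 CPM and 22 above 20 CPM.

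**Figure D5:**
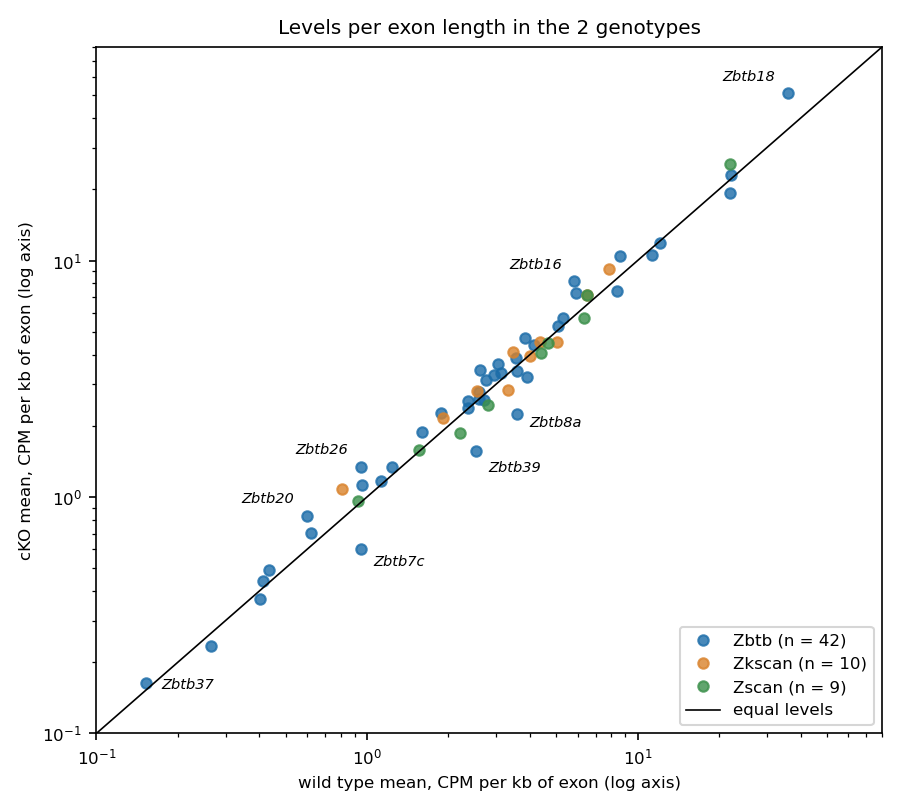
Mean level per exon length in wild type (x axis) and cKO (y axis), in CPM per kb on log axes, for the 61 tested members with an exon length; the line marks equal levels. Points run from 0.153 (Zbtb37) to 35.9 CPM per kb (Zbtb18) in wild type and stay near the line, with Zbtb39, Zbtb8a and Zbtb7c below it.

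Summed over the 62 tested members, the level was 1609, 1547 and 1674 CPM in wild type against 1778, 1808 and 1714 CPM in cKO. The cKO sums were all higher than the wild type sums, which is a description and was not tested. A large part of this difference lay in Zbtb18, whose groups overlapped, with a mean of 220.2 CPM in wild type against 313.2 CPM in cKO. Wild type replicate 2 was the lowest library for 17 members (27.4%, against 26% of all genes tested) and the highest for 10 (16.1%, against 26.4%).

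Relatives under other names and proteins these factors work with were followed through 6 lists, and no gene of any of them passed (edgeR, adjusted p below 0.05). Of all genes tested, 49.2% had a positive log2 fold change, and at an unadjusted p below 0.05 there were 11.1% higher and 8.81% lower in cKO, 19.9% together, which is the background for the counts below. The corepressors and ligase partners of BTB domains had 9 of 15 positive log2 fold changes (median 0.11) and 2 with an unadjusted p below 0.05, both higher, a share below the 19.9% of all genes. Hdac3, the deacetylase of the NCoR complex, had 86.3 ± 5.43 CPM in wild type against 108.6 ± 4.57 CPM in cKO (SD, n = 3 each; log2 fold change 0.33, adjusted p = 0.0799), and DESeq2 called it (adjusted p = 0.0128). With the striatal covariate the Hdac3 value was 0.14 (adjusted p = 0.645). Tbl1xr1, of the same complex, had a log2 fold change of 0.27 (adjusted p = 0.139). Trim28 and other silencing factors listed with it had 15 of 18 positive values (median 0.050), with 3 higher and 1 lower at an unadjusted p below 0.05, a share near the 19.9% of all genes. In that list Fam208a, the TASOR subunit of the HUSH complex, had 42.9 ± 4.51 CPM in wild type against 61.1 ± 7.35 CPM in cKO (a log2 fold change of 0.51, adjusted p = 0.0833, and 0.0107 with DESeq2). Chd3, a remodeller of the NuRD complex, had a log2 fold change of 0.28 (adjusted p = 0.169), or 0.083 with that covariate.

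Readers, writers and Tet erasers of DNA methylation, listed together with Ctnnd1, the p120 catenin partner of Kaiso, had 9 of 13 positive log2 fold changes (median 0.13, against 49.2% of all genes positive), and 1 gene had an unadjusted p below 0.05. Uhrf2 had 49.6 ± 1.31 CPM in wild type against 59.5 ± 1.13 CPM in cKO (a log2 fold change of 0.26, adjusted p = 0.098), while its relative Uhrf1 had a log2 fold change of -0.78 from 2.04 CPM (adjusted p = 0.252), which was -0.42 on omitting wild type replicate 2, and 0.17 when the striatal covariate was added. The Myc network around Zbtb17 had 8 of 13 positive values (median 0.11), with 5 higher and 1 lower at an unadjusted p below 0.05, where all genes had 11.1% and 8.81%. Together these were a share above the 19.9% of all genes, a difference that was not tested. Mycl had 29.3 ± 10.3 CPM in wild type against 54.1 ± 8.60 CPM in cKO (a log2 fold change of 0.88, adjusted p = 0.144, and 0.0188 with DESeq2), or 0.039 with the striatal covariate, and Mxd3 had a log2 fold change of 0.91 from 1.41 CPM (adjusted p = 0.177), or 1.39 with the covariate. BTB zinc finger genes under other names had 5 of 8 positive values and 1 with an unadjusted p below 0.05, with Gzf1 at 0.24 (adjusted p = 0.237) and Bcl6 at 0.34 (adjusted p = 0.399). The Bcl6 value was 0.11 on omitting wild type replicate 2, and the striatal covariate turned it to -0.30. With that covariate the Gzf1 value was 0.30. SCAN genes under other names had 9 of 15 positive values and, at an unadjusted p below 0.05, 6 higher and 2 lower (all genes 11.1% and 8.81%). Together these were a share above the 19.9% of all genes, a difference that was not tested. Zfp263 was at 0.29 and Zfp202 at 0.61 (adjusted p = 0.145 for each), or 0.18 and 0.69 with that covariate.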

How the data were processed

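The authors deposited raw read counts for each gene of 3 wild type and 3 cKO hippocampal libraries. Build mm10 and the tools cutadapt, HTSeq 0.6.1p1, TopHat2 2.0.10 and DESeq2 1.6.3 are listed, without roles, per the submitters' processing notes. The gene annotation was not stated. The deposited normalised counts (a signal equal to the counts over 1 size factor per library) were not tested. Values of log2 fold change that the authors deposited, and their p-values, are quoted only where named. All columns were matched to samples by their names, and 0 were left unmatched. Whether the kit kept strand is not given.

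Counts were tested over all genes with edgeR 4.0.16 in R 4.3.3 (quasi-likelihood test, minimum count of 10, TMM, Benjamini-Hochberg, threshold 0.05), which was tested on simulated data. CPM uses TMM library sizes. SE is the absolute log2 fold change over the root of F. DESeq2 1.42.0 and limma-voom (limma 3.58.1), scaling, filters, a replicate block, omitted libraries and a striatal covariate (mean log2 CPM of 8 markers) were alternatives. Members, lists and named genes were chosen with earlier results of these data known. Named were the 12 members with the smallest p, the 10 most abundant, 15 with known roles (and the Zscan4 genes), and the 2 smallest p of each list. Other genes were named after their values were seen, as neighbours or as part of a small count.

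Both genotypes carry replicates numbered alike, and the labels do not say what a number marks. Same-numbered libraries deviated together, in part weakly (correlation across genes of deviations from group means 0.219, 0.426 and 0.101). However, cKO replicate 3 correlated more with wild type replicate 1 (0.202), so whether the numbers pair the samples was not settled. The main test left the replicate number out, and it entered as a block only in an alternative fit. Exon lengths came from GENCODE M21 and positions from RefSeq, both on GRCm38, and all 69 symbols matched.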

Additional observations from a re-analysis of the deposited data

How the results depend on the processing

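The count of members higher in cKO was 0 in all fits run. The count lower was 1 (Zbtb39) with DESeq2 size factors, without the low-count filter, with a mean CPM filter, with DESeq2 and with limma-voom, and otherwise 0. The replicate block changed no member's call (Zbtb39 adjusted p = 0.0612), and the fit with that block called 185 genes of the whole table against 225. That table count was 881 with DESeq2, 111 without wild type replicate 2 and cKO replicate 1, 0 with the striatal covariate (1620 at an unadjusted p below 0.05), and 12 to 147 without any 1 library. The members' median log2 fold change was positive throughout: 0.081 with upper-quartile scaling, 0.081 without wild type replicate 2 and cKO replicate 1, 0.084 with the striatal covariate and 0.063 to 0.099 without any 1 library. Leaving out Zbtb8os and Zbtb11os1, an alternative chosen after seeing the data, gave 0.095.

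Of 525 values of single named genes under 15 alternatives, 8 turned sign. With the striatal covariate, which itself separated the genotypes, these were Zbtb7a (0.0058), Zbtb4 (-0.097), Zbtb20 (-0.33), Zbtb24 (-0.011), Bcl6 (-0.30) and Uhrf1 (0.17). Zbtb17 ranged from -0.23 to 0.025 without any 1 library, positive without wild type replicate 2, and Zkscan3 was -0.0018 without cKO replicate 3. The values of Zbtb4, Zbtb24, Zbtb17, Zkscan3 and Zscan21, all small, also moved by over 1.5 times on omitting single libraries. Some larger values moved as much. Zbtb20, at 0.47, was 0.76 without wild type replicate 1 and 0.28 without wild type replicate 2, and Bcl6, at 0.34, was 0.11 without wild type replicate 2. The cause was not tested. With 3 libraries a genotype and a median SE of 0.13, small changes could not be resolved, and changes well above this size could miss the threshold. Zbtb26 at 0.50 (SE 0.16, edgeR adjusted p = 0.163) and Zbtb39 at -0.70 (SE 0.13, edgeR adjusted p = 0.0501) were not called. Ctcf itself lost its call without wild type replicate 1 (adjusted p = 0.0604), wild type replicate 3 (0.101) or cKO replicate 2 (0.124) and with the striatal covariate (0.443), while its log2 fold change was -1.10, -1.04, -1.15 and -0.80 in these fits against -1.08.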
